A study of Mus musculus with 134 samples.

Results

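The Hox genes of the 4 mouse clusters were followed through every bulk expression library of the study and through its single-cell expression matrices. The members were taken by name, as the Hox genes of the Hoxa, Hoxb, Hoxc and Hoxd clusters that the expression tables list, and no measured value was used to choose them. There were 38 members among 25209 genes: 10 in Hoxa, 10 in Hoxb, 9 in Hoxc and 9 in Hoxd. The bulk data were 54 libraries in 27 groups of 2 from mouse embryonic stem cells (mESCs, cell type E14, strain 129/Ola), grown without a feeder layer in serum with LIF. Wild-type (WT) SET-seq libraries, in which cytoplasmic poly(A) RNA is sequenced from the lysate while the nuclei go to chromatin profiling, came without antibody (8 libraries, 10 to 10000 cells), beside an H3K4me3 assay (6 libraries, 100 to 10000 cells) and beside an H3K27me3 assay (6 libraries, 100 to 10000 cells). WT RNA was also tagmented in vitro as RNA/cDNA hybrids made from total RNA (28 libraries that vary Tn5, RNA amount, temperature and time) or prepared by ligation (2 libraries). Aebp2 KO1 and Aebp2 KO2, each with 2 libraries, are CRISPR/Cas9 clones made in the same cell type, untreated and labelled day 1; the number of cells per library is not in their labels, and the 2 libraries of a clone share that clone. The single cells were daughters of mESCs that divided on a bead carrying Wnt3a, labelled as proximal or distal to that bead.

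Hox genes encode homeodomain transcription factors that give cells their position along the body axis, and their order on the chromosome follows the order in which they are used from head to tail. In embryonic stem cells all the clusters carry H3K27me3, laid down by Polycomb repressive complex 2 (PRC2), and most also carry H3K4me3, the state called bivalent. Aebp2 is an accessory subunit of PRC2, and the Hox clusters are among the known targets of the complex.

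The 200 bases before the annotated start of 4 members are shown because the results turn on them: Hoxa5 and Hoxc13 were each called in 1 clone against the WT libraries of the H3K27me3 assay, Hoxa7 was the member above every WT SET-seq library in both clones, and Hoxb13 had the highest length-scaled mean over all WT libraries, through the in vitro set. Coordinates and bases are of the mouse build mm9 (NCBIM37), each is printed 5′ to 3′ on the strand of its gene, and capitals mark CpG dinucleotides, the feature of promoters to which PRC2 is known to be recruited.
Hoxa5, chr6:52154587-52154786, minus strand: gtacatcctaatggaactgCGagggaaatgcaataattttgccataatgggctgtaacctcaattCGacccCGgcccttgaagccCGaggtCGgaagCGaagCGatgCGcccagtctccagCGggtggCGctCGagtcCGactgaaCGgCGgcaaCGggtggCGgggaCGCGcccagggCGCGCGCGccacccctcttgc
Hoxa7, chr6:52168573-52168772, minus strand: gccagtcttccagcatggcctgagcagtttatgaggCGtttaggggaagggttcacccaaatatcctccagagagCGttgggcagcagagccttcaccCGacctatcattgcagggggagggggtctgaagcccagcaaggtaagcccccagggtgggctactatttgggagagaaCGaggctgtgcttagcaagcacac
Hoxb13, chr11:96055430-96055629, plus strand: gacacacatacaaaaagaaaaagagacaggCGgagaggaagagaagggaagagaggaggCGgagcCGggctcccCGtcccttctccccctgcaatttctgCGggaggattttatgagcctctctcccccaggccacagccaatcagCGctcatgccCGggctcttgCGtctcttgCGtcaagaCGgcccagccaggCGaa
Hoxc13, chr15:102751362-102751561, plus strand: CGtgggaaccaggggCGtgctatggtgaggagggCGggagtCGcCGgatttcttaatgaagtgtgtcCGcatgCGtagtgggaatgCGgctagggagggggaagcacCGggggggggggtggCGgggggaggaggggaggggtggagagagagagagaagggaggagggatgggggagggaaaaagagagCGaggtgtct
Hoxa5 held 22 CpGs in this window, Hoxb13 and Hoxc13 held 11 each, and Hoxa7 held 4. Over the 38 members the median was 9 CpGs (range 2 to 33), and over 25040 genes of the tables it was 7 (range 0 to 47). At least 10 CpGs stood in the windows of 17 members (44.7%), against 42.8% of all genes.

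The libraries differed in depth, in the share of ribosomal precursor and in 2 genes that bear on their labels. The precursor Rn45s took 48.8% to 56.7% of all counts in the KO libraries and 12.6% to 34.2% in the WT SET-seq libraries. It took 4.30% to 84.6% in vitro, and 1.54% and 1.96% after ligation. Outside the ribosomal precursor Rn45s, which was removed, the 4 KO libraries held 935126 to 1124026 counts, the WT SET-seq libraries 188275 to 7522420, the in vitro libraries 323449 to 16888686 and the ligation libraries 13906615 to 14065944. A member with 3 counts in a KO library therefore stood at 2.67 to 3.21 CPM (counts per 1000000 counts outside Rn45s), and lower levels could not be measured there. Aebp2 stood at 15.7 and 15.0 CPM in KO1, at 49.7 and 30.2 CPM in the libraries labelled KO2 and at 34.7 to 76.0 CPM in the 6 WT libraries of the H3K27me3 assay. Aebp2 was lower in KO1 (log2 fold change -1.84 ± 0.35 SE, adjusted p = 5.63e-04, edgeR) and did not pass the test in KO2 (-0.35 ± 0.29, adjusted p = 0.400), so its transcript does not check the KO2 label. Hprt, which the parental line ES-E14TG2a is known to lack, was at 0 to 2.14 CPM in the KO libraries and 0 to 1.29 CPM in vitro, but at 66.2 to 485 CPM in the WT SET-seq libraries and 181 to 184 CPM after ligation. Between the KO and the WT SET-seq libraries, genotype, cell stock and the share of Rn45s cannot be told apart. The in vitro libraries share the low Hprt of the clones but were made from another RNA preparation.

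Hox transcripts were scarce in WT mESCs but not absent. Summed over the 38 members they made up 9.47 to 46.0 CPM in the 20 WT SET-seq libraries (median 27.9), 14.6 to 107 CPM in vitro (median 70.3) and 60.1 and 60.9 CPM after ligation. Much of the baseline came from 2 posterior genes: Hoxc13, which is needed for hair and nail, and Hoxb13, a gene of the tail end and prostate, together gave a median of 42.8% of the member counts over 50 WT libraries. Per kilobase of exon, mean levels over the 50 WT libraries were 6.92 RPKM for Hoxb13, 5.68 for Hoxc13, 3.52 for Hoxc12, 2.11 for Hoxc9 and 1.60 for Hoxa7. This order belongs to the pooled libraries: Hoxb13 averaged 12.0 RPKM in vitro but 0.408 in WT SET-seq and 0.652 after ligation, while Hoxc13 averaged 6.43, 4.47 and 7.38 and was the highest member in those last 2 sets. Hoxc9 took much of its mean from a single shallow in vitro library and averaged 1.56 RPKM without it. Among all genes the means of the 5 lay at percentiles 73.6, 71.3, 66.4, 61.4 and 59.1, while the median member lay at percentile 43.5. The lowest member was Hoxb2, a hindbrain gene, at percentile 10.7.

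Hoxc13 gave a count in 47 of 50 WT libraries, Hoxa9 in 44, Hoxa7 and Hoxc12 in 42 each, and Hoxb9 and Hoxb13 in 40 each. At the other end Hoxb2 gave a count in 4 WT libraries, Hoxb5 and Hoxd12 in 7 each, and Hoxb1, Hoxb6 and Hoxb8 in 8 each. Within the Hoxb cluster alone, members thus ran from detected in most WT libraries to detected in few. Some exonic bases are shared with antisense transcripts, 24.8% in Hoxa11, 20.6% in Hoxb2 and 16.4% in Hoxa3, and the counts of these 3 members cannot be assigned with certainty.

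**Figure D1:**
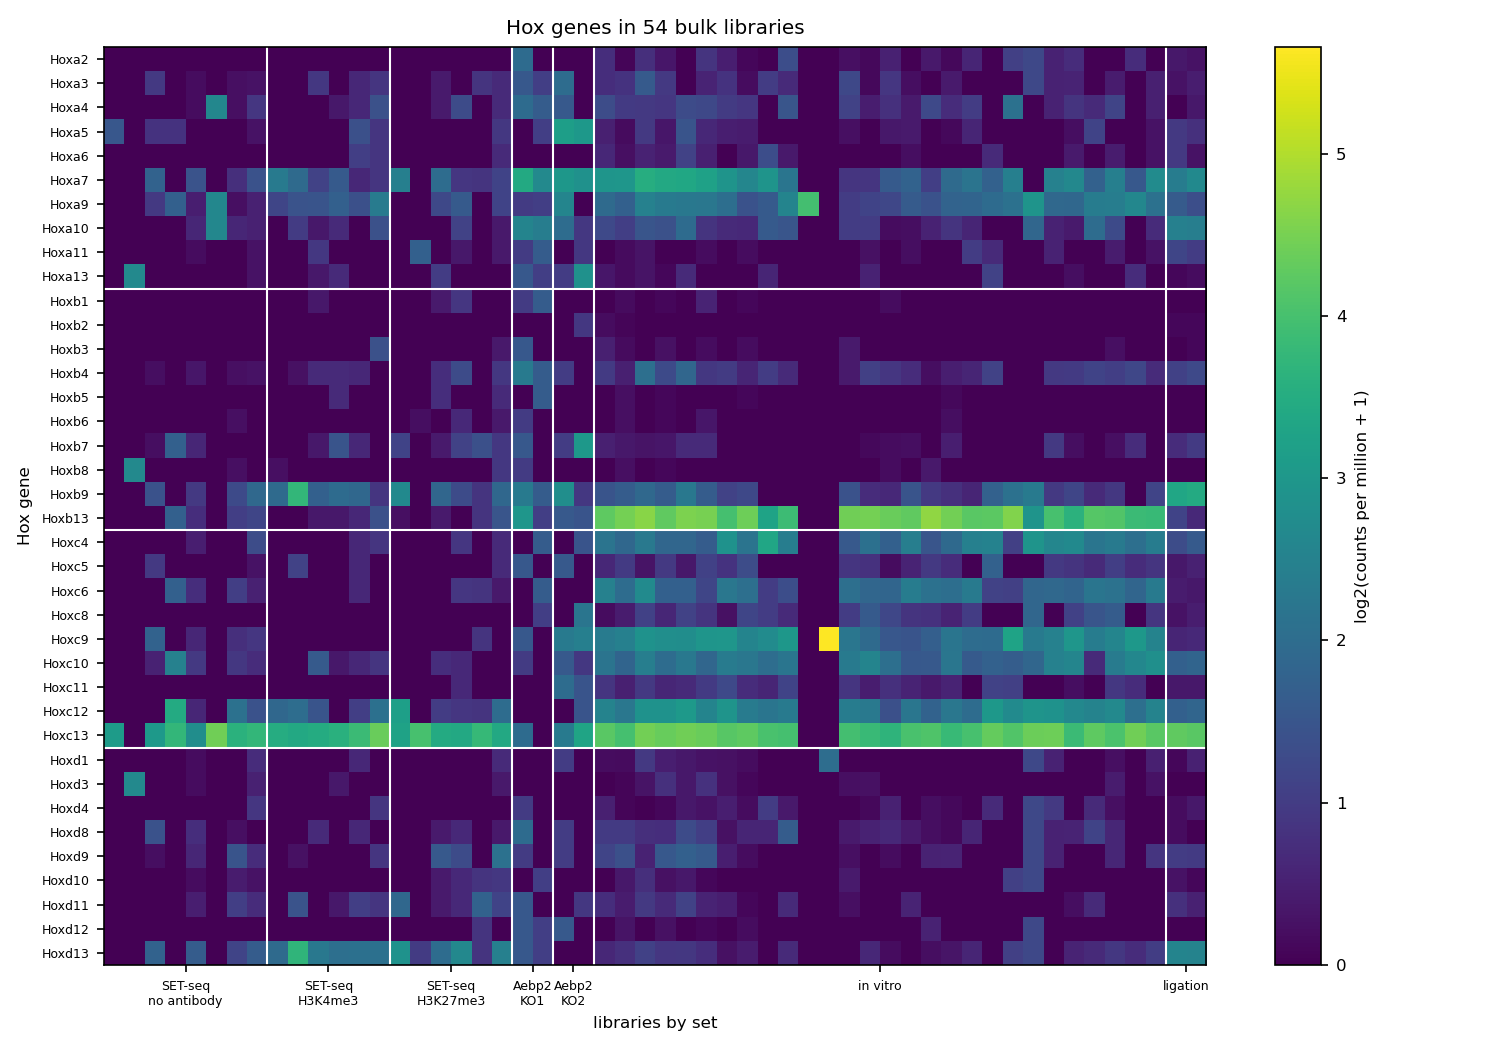
Level of the 38 Hox genes (vertical axis, by cluster and in order of paralog group) in the 54 bulk libraries (horizontal axis, by set), as log2(CPM + 1). Hoxc13 is bright in nearly all WT libraries and Hoxb13 in the in vitro libraries, while Hoxb1, Hoxb2, Hoxb5, Hoxb6 and Hoxb8 are dark in most libraries.

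The members that made up the WT baseline differed between the in vitro and the SET-seq libraries. Between the in vitro and the WT SET-seq libraries 13 of 16 testable members differed (edgeR on all 54 libraries, adjusted p below 0.05, where 63.1% of all genes did), 12 of them higher in vitro (30.5% of all genes). The median difference of the 16 was 1.43 on the log2 scale, against -0.04 for all genes tested. Hoxb4, Hoxb13, Hoxc4, Hoxc6 and Hoxc10 would not have passed the filter on low counts without the in vitro libraries. A high value there brought them into the test, and the count of 12 and the median carry that limit. Hoxb13 ranged from 0 to 2.31 CPM over the WT SET-seq libraries and reached a median of 17.9 CPM in vitro. It was 5.18 ± 0.40 higher on the log2 scale (adjusted p = 1.57e-17). Hoxc9, which patterns the thorax, was 5.50 ± 0.55 higher (adjusted p = 5.97e-13), and its neighbours Hoxc4, Hoxc6 and Hoxc10 were 3.94 ± 0.48, 3.57 ± 0.46 and 2.73 ± 0.42 higher. Hoxd13, which shapes digits and the genital bud, went the other way, with 0.525 CPM (median) in vitro and 0.808 to 6.43 CPM beside the H3K27me3 assay, a log2 difference of -2.52 ± 0.37 (adjusted p = 2.35e-08). Hoxa5, Hoxa13 and Hoxb9 did not pass, at 0.07, -0.03 and -0.70.

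Ligation and in vitro libraries differed in 6 of 16 members. The limit of the filter on Hoxb13 and Hoxc6 holds here as well. Against in vitro, Hoxd13 (3.07), Hoxb9 (2.59) and Hoxa10 (1.97) were higher after ligation and Hoxb13 (-4.38), Hoxc9 (-3.43) and Hoxc6 (-3.19) lower, and 33.3% of all genes were called. Cell stock and RNA preparation move together in these comparisons and cannot be told apart. Each clone was therefore set against each WT set.

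The Aebp2 KO clones were profiled to find which genes change without this PRC2 subunit. The Hoxa cluster stood highest relative to WT, with 26.5 and 18.2 CPM in KO1 and 28.8 and 21.4 CPM in KO2, from 17 to 29 counts a library. All 4 values lay above the 20 WT SET-seq libraries (1.62 to 15.3 CPM, median 5.24) and above the ligation libraries (14.3 and 14.4 CPM), and 2 of them lay within the in vitro range (0 to 22.4 CPM, median 11.2). Hoxa7 and, in KO2, Hoxa5 made up a large part of these sums, for which no share over all genes was drawn. Hoxb stood at 21.6 and 9.62 CPM in KO1 and at 9.94 and 10.7 CPM in KO2, against 0 to 12.6 CPM in WT SET-seq and 0 to 30.4 CPM in vitro, so the groups overlapped. Hoxc stood at 7.85 and 5.35 CPM in KO1 and at 14.9 and 23.1 CPM in KO2, inside the WT SET-seq range of 0 to 29.3 CPM. Against the WT libraries of the H3K27me3 assay alone (11.6 to 16.8 CPM) KO1 lay below, and of the KO2 libraries one lay within and one above. Hoxd stood at 10.8 and 3.21 CPM in KO1 and at 4.97 and 0.890 CPM in KO2, inside the WT SET-seq range of 0 to 13.9 CPM.

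Summed over all 38 members the clones reached 66.7 and 36.4 CPM (KO1) and 58.6 and 56.0 CPM (KO2). The lowest of these lay below the highest WT SET-seq library and all 4 lay within the in vitro range. Hoxc13 and Hoxb13 gave 2.94% to 19.0% of member counts in the KO libraries, within the WT range of 0% to 81.4%. The share of 0% came only from the in vitro libraries of 30 pg RNA (40 and 17 member counts) and from 10 cells without antibody, replicate 2 (3 member counts). Every other WT library gave at least 21.0%, above the KO libraries. Without these 2 genes the members summed to 35.3 to 56.9 CPM in the clones, 1.89 to 36.3 CPM in WT SET-seq and 14.6 to 62.4 CPM in vitro. In bulk samples, more cells that use a gene and more RNA per cell cannot be told apart.

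By position along the axis, the central members (paralog groups 5 to 8) stood at 11.8 and 18.6 CPM in KO1 and at 18.9 and 24.0 CPM in KO2, above every WT SET-seq library (at most 6.61 CPM). The highest in vitro library, at 19.7 CPM, exceeded 3 of these 4 values. A large part of the central sum was Hoxa7 (9.81 and 5.35 CPM in KO1, 6.96 and 6.23 CPM in KO2). In KO2 Hoxa5 added 7.95 and 7.12 CPM. Both genes are given singly below, no share over all genes was drawn for such sums, and the sum is not a separate result about position. Anterior members (groups 1 to 4) stood at 9.62 to 15.7 CPM in KO1 and at 2.67 to 6.96 CPM in KO2, against at most 5.73 CPM in WT SET-seq and 12.2 CPM in vitro. Posterior members (groups 9 to 13) stood at 15.0 to 32.8 CPM in the clones, within the WT SET-seq range of 5.31 to 41.7 CPM.

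**Figure D2:**
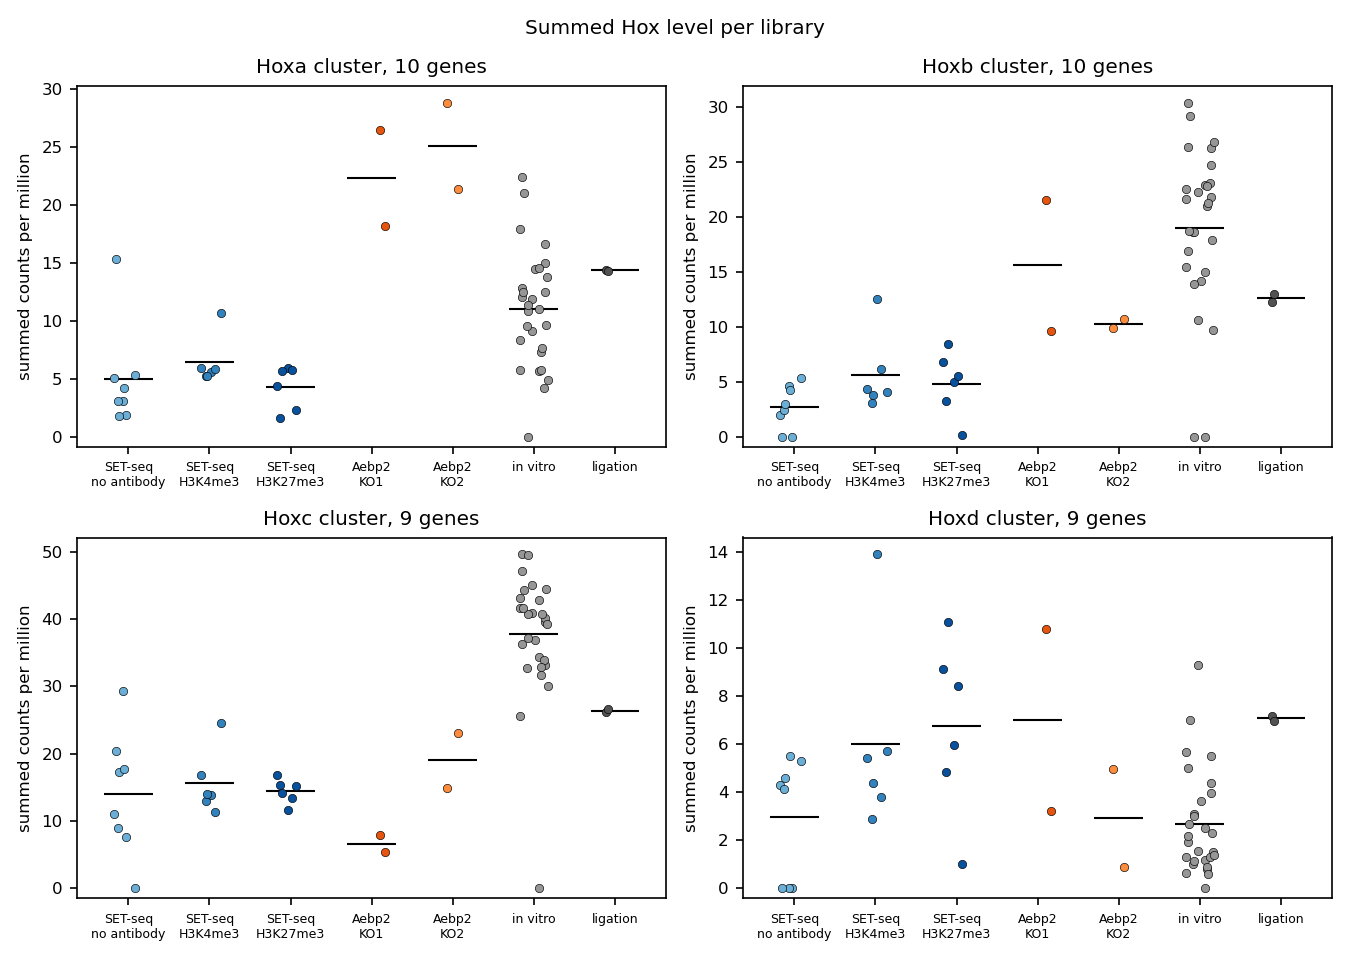
Summed CPM of the Hox genes of each cluster (vertical axis), one point per library by set (horizontal axis), with the mean of each set as a bar. The KO libraries lie above all WT SET-seq libraries in Hoxa only, and the in vitro libraries lie high in Hoxb and Hoxc.

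The first comparison set each clone against the 6 WT libraries of the H3K27me3 assay, with edgeR's quasi-likelihood test over the 10 libraries. Only 5 of 38 members passed the filter on low counts: Hoxa5, Hoxa7, Hoxb9, Hoxc13 and Hoxd13. A member that passed through its counts in the clones alone had to be higher there, and one that passed through WT alone was likelier to be lower. The 5 therefore do not stand for the 38. Counted over all 38 from the summed counts, 28 members were higher and 5 lower in KO1 than in WT (51.6% and 30.6% of 21358 genes), and 21 were higher and 6 lower in KO2 (43.3% and 34.3%). The median log2 ratio was 1.97 in KO1 and 0.95 in KO2, against 0.07 and 0.00 over all genes, with a group without a count set to a floor of 3 counts. Of the members, 4 had no count in these WT libraries, 6 had none in KO1 and 12 had none in KO2, and Hoxa6 and Hoxd3 had none in any KO library. These directions are uneven near the floor, because the WT libraries together are deeper than a clone. Hoxb6 and Hoxb8 were higher in KO1 on 1 count each, while a member without a count in a clone was seldom counted as lower. The shares over all genes, many of them better expressed, do not remove this, and no direction of the set is read from them.

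In KO1, Hoxc13 was the only one of the 5 that passed (36.8% of all genes did, 19.9% as lower). It stood at 2.94 and 0 CPM in KO1, and at 8.63 and 15.2 CPM (100 cells), 9.92 and 9.58 CPM (1000 cells) and 12.9 and 9.61 CPM (10000 cells) in WT. Both KO1 libraries lay below all 6 WT libraries (13.8% of genes did), a log2 fold change of -2.85 ± 0.83 (adjusted p = 0.0127). The call was lost without KO1 replicate 2, the library with no Hoxc13 count (adjusted p = 0.149). In KO2, at 3.98 and 8.90 CPM, Hoxc13 gave -0.65 ± 0.63 (adjusted p = 0.475). The difference between the clones, -2.20 ± 0.97, did not pass (adjusted p = 0.344).

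In KO2, Hoxa5, a gene of lung and neck vertebra patterning, was the only one of the 5 that passed (32.3% of all genes did, 15.1% as higher). It lies at chr6:52151753-52154586 on the minus strand, and it gave 8 and 8 counts in KO2, which is 7.95 and 7.12 CPM. Among the WT libraries it gave 0.901 CPM in 10000 cells replicate 2 and no count in the other 5. Both KO2 libraries lay above all 50 WT libraries of every set, the highest of which reached 1.89 CPM. Hoxa5 passed the filter on low counts through KO2, so that only a high value there could bring it into the test, and its call is read with that limit. The log2 fold change was 5.43 ± 1.47 (adjusted p = 0.00928), and the call was absent when WT was limited to the libraries of 10000 cells because Hoxa5 then missed the filter on low counts. With a single library left out it missed the filter in 7 of 10 cases and was called in the other 3 (5.33 to 5.41). In KO1 Hoxa5 gave 0 and 1.07 CPM, 1.56 ± 2.29 (adjusted p = 0.630), and the difference between the clones, -3.87 ± 2.26, did not pass (adjusted p = 0.526).

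Hoxa7, which patterns thoracic vertebrae, was high in both clones, at 9.81 and 5.35 CPM in KO1 and 6.96 and 6.23 CPM in KO2. In WT it stood at 4.40 and 0 CPM (100 cells), 2.98 and 0.871 CPM (1000 cells) and 0.808 and 1.20 CPM (10000 cells). The groups did not overlap, as in Hoxa13 and in 8.17% of all genes, and the lowest KO value also exceeded the highest of the WT libraries without antibody (2.45 CPM) or with H3K4me3 (3.96 CPM). The fold changes did not pass: 2.03 ± 1.10 in KO1 (adjusted p = 0.164) and 1.94 ± 1.11 in KO2 (adjusted p = 0.202). Hoxa7 passed the filter on low counts through the clones alone, where it was high, and its fold changes are read with that limit. In vitro Hoxa7 ranged from 0 to 10.5 CPM (median 4.01) and after ligation it stood at 4.19 and 5.39 CPM, so those sets overlapped the clones.

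Hoxd13 fell in the fit over both clones, at -3.76 ± 1.46 (adjusted p = 0.0465, where 45.0% of all genes passed, 25.0% as lower). It stood at 1.96 and 1.07 CPM in KO1 and had no count in KO2, against 6.43 and 0.992 CPM (100 cells), 2.98 and 5.23 CPM (1000 cells) and 0.808 and 4.50 CPM (10000 cells) in WT. KO1 overlapped WT and KO2 lay below it (14.1% of genes did), at least 2.69-fold lower when 3 counts over both libraries are taken as the floor. Hoxd13 passed the filter on low counts through WT alone, and its fall is read with that limit. The call held in 2 of 6 alternatives and is among the least stable of those given here. Hoxc13 also fell over both clones, at -1.75 ± 0.56 (adjusted p = 0.0173), and lost the call without KO1 replicate 2 or without KO2 replicate 1. Hoxb9, a gene of the thorax and mammary gland, did not pass in either clone (0.39 and 0.64). Between KO1 and KO2 no member passed (0.847% of all genes did).

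The other members named for their level in WT or in the clones had fewer counts. Hoxb13 (chr11:96055630-96057924) stood at 6.87 and 1.07 CPM in KO1 and at 1.99 and 1.78 CPM in KO2, against 0.169 and 0 CPM (100 cells), 0.331 and 0 CPM (1000 cells) and 0.808 and 1.80 CPM (10000 cells) in WT. Hoxc12, a gene of the posterior trunk, stood at 8.12 and 0 CPM (100 cells), 0.992 and 0.871 CPM (1000 cells) and 0.808 and 3.00 CPM (10000 cells) in WT, and gave 2 counts in KO2 replicate 2 and none in the other KO libraries. Hoxd12, its counterpart in the Hoxd cluster, had the highest length-scaled mean of Hoxd in the clones, with 1.96 and 1.07 CPM in KO1 and 1.99 and 0 CPM in KO2, against 0.808 CPM in a single WT library. All 3 genes thus overlapped WT in at least 1 KO library. In all, 26 and 19 members gave a count in KO1 and 20 and 17 in KO2, with 68, 34, 59 and 63 counts in total.

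**Figure D3:**
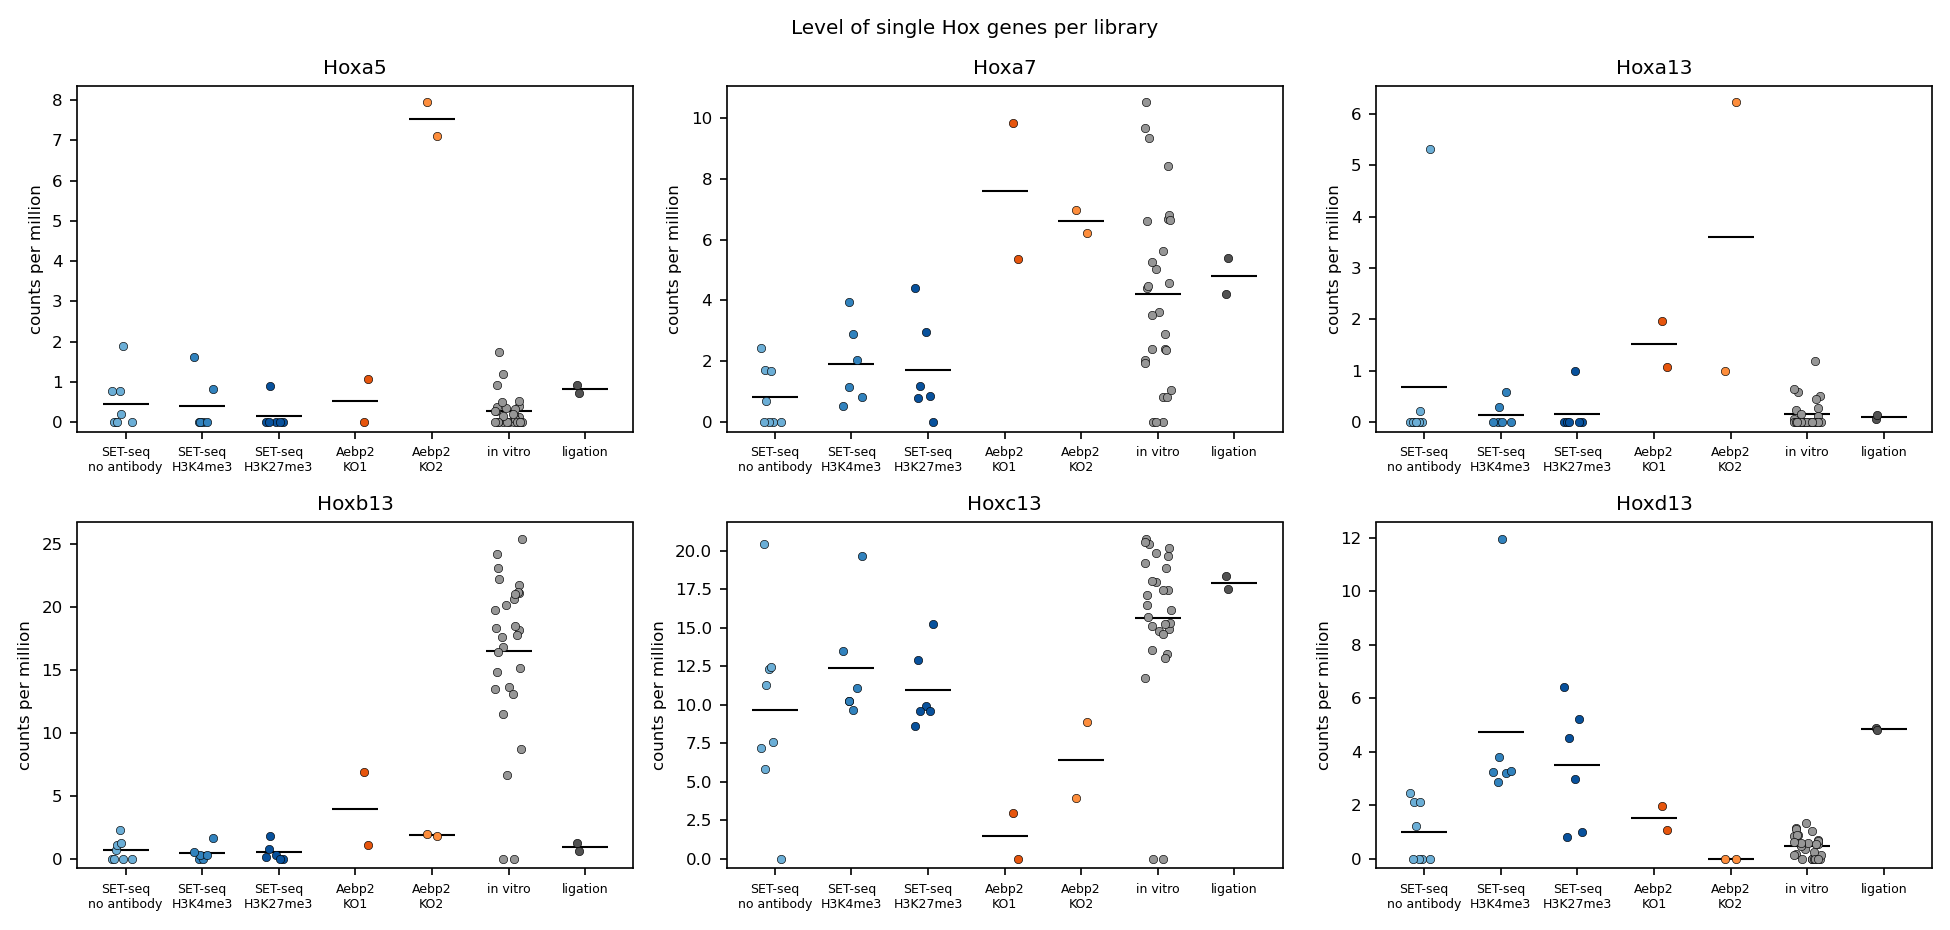
CPM (vertical axis) of Hoxa5, Hoxa7, Hoxa13, Hoxb13, Hoxc13 and Hoxd13, one point per library by set (horizontal axis), with the mean of each set as a bar. Hoxa5 is high in both KO2 libraries only, Hoxc13 is low in KO1, and Hoxb13 is high in vitro.

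A fit over all 54 libraries, in which 16 of 38 members could be tested, set each clone against each WT set. These comparisons share the KO libraries and one estimate of spread, so they are not independent of each other. KO1 had lower Hoxc13 than all 5 sets, with log2 fold changes of -2.86 (adjusted p = 0.0248) against H3K27me3, -3.03 (0.0163) against H3K4me3, -2.75 (0.0196) against no antibody, -3.44 (0.00249) against in vitro and -3.43 (0.0191) against ligation. The shares of all genes called lower were 7.28%, 7.88% and 12.3% against the SET-seq sets and 3.61% against ligation, with 25.6% called in either direction against in vitro. In the same order of 5 sets, 8.13%, 9.36%, 14.6%, 14.6% and 4.14% of all genes were called higher. Members higher in KO1 changed with the set: Hoxa10, a gene of uterus and lumbar patterning, and Hoxb13 against H3K27me3 (4.09, adjusted p = 0.0113; 3.14, adjusted p = 0.0408), Hoxb13 and Hoxb4 against H3K4me3 (3.71 and 3.12), and Hoxa7, Hoxa10 and Hoxb4 against no antibody (2.47, 3.43 and 3.89). Hoxb4 passed the filter of this fit only with KO1 replicate 1 (3.92 CPM) and a single in vitro library (3.20 CPM). The calls of Hoxb4 are read with that limit. Hoxc9 was also called against H3K4me3, on 2 counts in KO1 replicate 1 and none in replicate 2 or in the 6 WT libraries, too few for a fold. Against the in vitro and the ligation libraries no member was called higher in KO1, and Hoxc12, with no count in KO1, was called lower than in vitro, by at least 2.89-fold against the floor.

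KO2 had higher Hoxa5 than 4 of the 5 WT sets, with log2 fold changes of 5.61 against H3K27me3 (adjusted p = 0.00133), 4.81 against H3K4me3 (0.00566), 3.72 against no antibody (0.0122) and 4.64 against in vitro (6.0e-05). Against ligation, at 0.719 and 0.924 CPM, it gave 3.38 (adjusted p = 0.177). The shares of all genes called higher were 6.06%, 6.6%, 10.5%, 11.4% and 4.4%. Outside KO2, Hoxa5 did not exceed 1.89 CPM in any library, so it passed the filter of this fit through KO2 alone. Its calls here are read with the limit given for the first comparison. Hoxa13, a gene of the autopod and the hindgut end, was called in the same 4 sets, at 4.52, 4.45, 5.10 and 4.72. Its KO2 level came mainly from one library, with 0.994 CPM in replicate 1 and 6.23 CPM in replicate 2, and it stood at 1.96 and 1.07 CPM in KO1. Apart from KO2 replicate 2, only a shallow WT library (10 cells without antibody, replicate 2, 5.31 CPM) exceeded 1.96 CPM. Hoxa13 thus passed the filter with the help of KO2. Hoxc9 was higher in KO2 than beside either histone assay (5.94 against H3K27me3, adjusted p = 9.22e-04), at 3.98 and 4.45 CPM against 0 to 0.808 CPM, but in vitro its median was 4.69 CPM. Against in vitro Hoxb13 (-3.10, adjusted p = 0.0271) and Hoxc6 (no count in KO2, at least 2.05-fold lower) were lower in KO2, as 8.62% of all genes were. Both needed the in vitro libraries to pass the filter. Against H3K4me3 Hoxd13 was lower (adjusted p = 0.0337, at least 3.85-fold), as 5.19% of all genes were.

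The medians over the 16 tested members followed the WT set as well. In KO1 they were 1.95, 2.34 and 0.90 against the H3K27me3, H3K4me3 and no-antibody sets, and -0.40 and -0.19 against in vitro and ligation. In KO2 they were 1.84, 1.54, 1.41, -0.64 and -0.60 in the same order. Over all genes tested every one of these medians lay between -0.11 and 0.04. The sign of the median member therefore turned between the SET-seq sets and the other 2 sets in both clones. The 16 members were not free of these sets. Hoxb13, Hoxc4, Hoxc6 and Hoxc10 needed the in vitro libraries to pass the filter, and Hoxa5 and Hoxa13 needed KO2. Hoxb4 needed KO1 replicate 1 and a single in vitro library. How much of the turn goes with this choice of members was not tested.

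**Figure D4:**
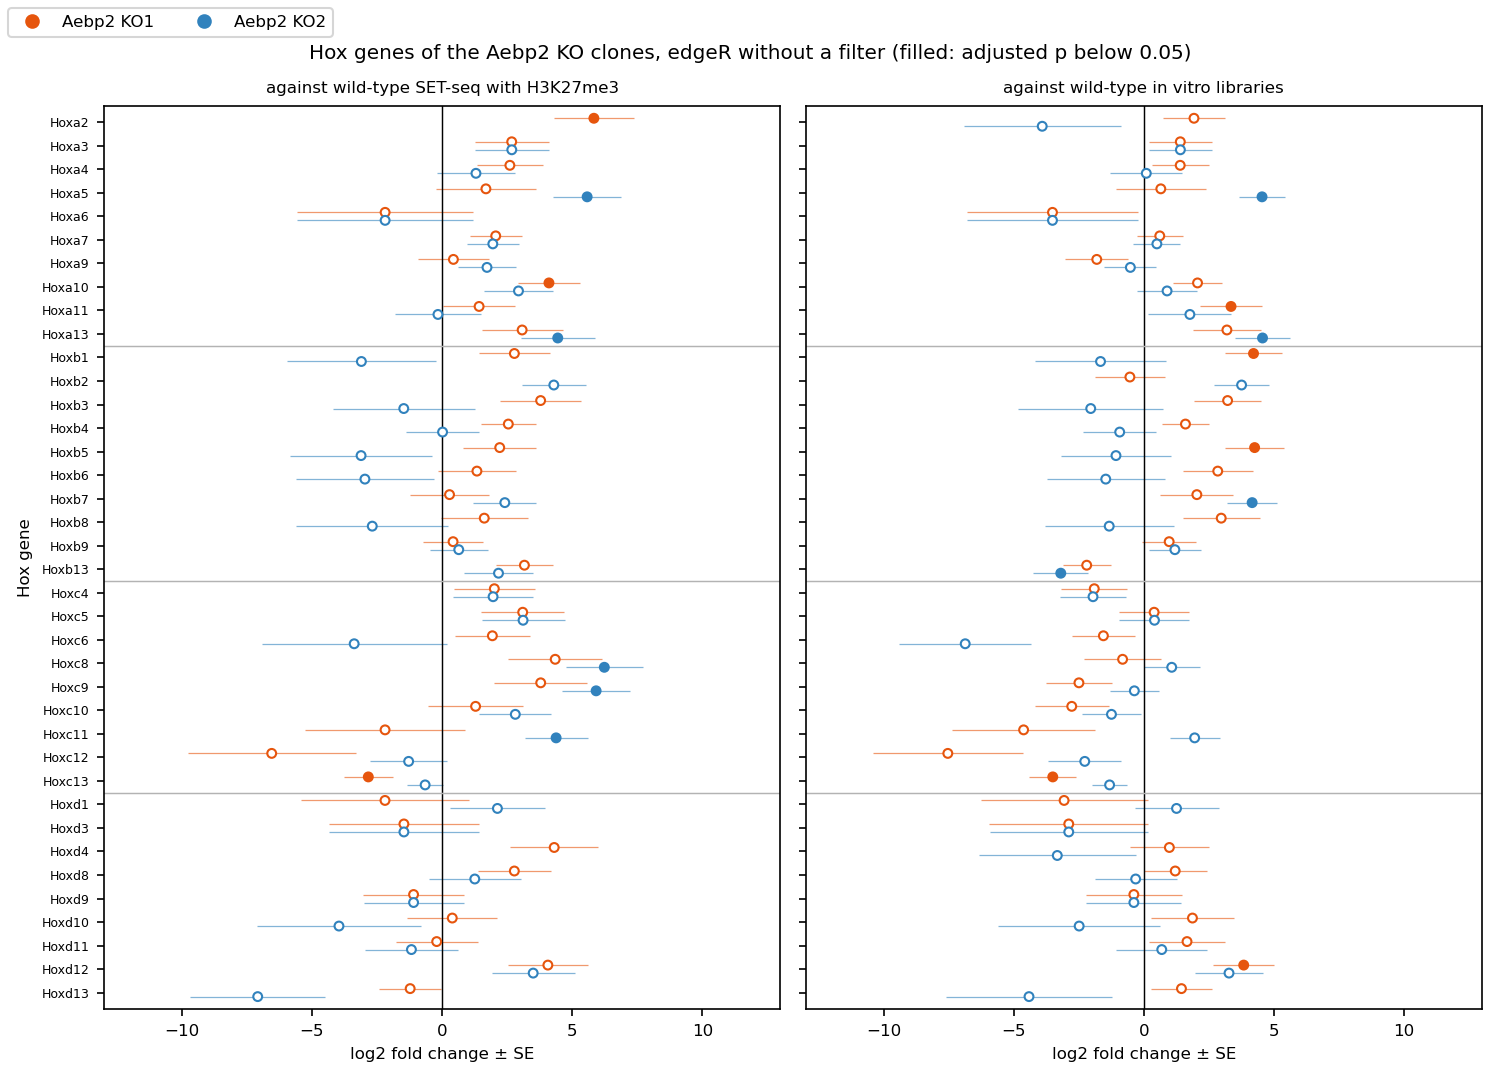
Log2 fold change ± SE (horizontal axes) of each Hox gene (vertical axis) in KO1 and KO2 against the WT libraries of the H3K27me3 assay (left) and against the in vitro libraries (right), from edgeR on 54 libraries without a filter on low counts; filled points have an adjusted p below 0.05, and genes without a count in either group have no point. Hoxa5 in KO2 and Hoxc13 in KO1 are filled on both sides. Most Hoxc genes lie to the right of 0 against SET-seq and to the left of it against in vitro. Many of them rest on very few counts in a clone, so the side is not read as a change of the cluster.

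Without the filter, all 38 members could be fitted and further ones with counts in a single clone were called. Against H3K27me3 these were Hoxa2 in KO1 (3 counts in replicate 1 and none in replicate 2 or in WT), where 6.27% of genes were called higher, and Hoxc8 and Hoxc11 (4.38) in KO2, where 4.17% were. Hoxc8, a gene of the thoracic motor neurons, had no count in any WT SET-seq library and 0 and 4 counts in KO2. Hoxc11 had 3 and 2 counts in KO2. Such calls rest on very few counts: summed over both KO2 libraries Hoxc8 was at least 14.4-fold higher than the floor of WT, but all its counts came from replicate 2, and without that library it had none.

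Read over every WT library, no member lay above all 50 in all 4 KO libraries (0.85% of genes did). Above all 20 WT SET-seq libraries there was Hoxa7 alone, 1 of 38 members, where 4.27% of genes did so. KO1 by itself placed Hoxa3, Hoxa7, Hoxb1, Hoxb4 and Hoxd12 above all 20 (10.3% of genes), and Hoxb1, a gene of the hindbrain, above all 50 (4.13%). Hoxb1 had 1 and 2 counts in KO1, and Hoxa3 and Hoxd12 had 2 and 1 each. These values lie under the 3 counts below which levels could not be measured. KO2 placed Hoxa5, Hoxa7, Hoxc9 and Hoxc11 above all 20 (5.95%), and Hoxa5 and Hoxc11 above all 50 (1.64%). Hoxa7 is the only member that both clones placed above all 20.

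Meis2, a TALE homeodomain gene that encodes a DNA-binding partner of Hox proteins, was higher in both clones than in the WT libraries of the H3K27me3 assay. It stood at 52.0 and 54.5 CPM in KO1 and 30.8 and 29.4 CPM in KO2, against 5.62 to 13.4 CPM in WT (2.61 ± 0.33, adjusted p = 1.59e-05, and 1.91 ± 0.35, adjusted p = 5.61e-04). Against the in vitro libraries Meis2 was also higher in both clones (2.41 and 1.73), and against all 20 WT SET-seq libraries it was higher in KO1 (2.17, adjusted p = 0.00108) and missed the threshold in KO2 (1.45, adjusted p = 0.0518).

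Upstream of Hox, Cdx2, a ParaHox gene that activates central Hox genes, was higher in KO1 (4.03 ± 1.27, adjusted p = 0.0198) and did not pass in KO2 (2.53, adjusted p = 0.192), and against in vitro it gave -0.16 and -1.64. In the retinoic acid pathway, which induces anterior Hox genes, Crabp1, a retinoic acid binding protein, was lower in both clones (-3.60 and -2.60) and did not pass against in vitro. Aldh1a2, the main retinoic acid synthesising enzyme of the embryo, was lower in KO2 against the H3K27me3 assay (-4.05 ± 1.24, adjusted p = 0.0191) and against in vitro (-3.40 ± 1.13, adjusted p = 0.0283), and did not pass against all WT SET-seq libraries (-3.72, adjusted p = 0.0833). Of 13 tested genes outside the clusters within 200 kb, 2 rose and 7 fell in KO1 and 3 rose and 4 fell in KO2, where 36.8% and 32.3% of all genes were called. Against in vitro the balance turned, with 4 of 15 higher and 2 lower in KO1 and 4 higher and 1 lower in KO2 (25.8% and 21.2% of all genes called), and Calcoco2, near Hoxb, went from -1.30 to 2.02 in KO1. The non-coding gene Halr1 beside Hoxa did not pass in either clone (2.44, adjusted p = 0.0857, and 1.81, adjusted p = 0.246). Over both clones Halr1 did not pass here (2.13, adjusted p = 0.0688). It passed against all WT SET-seq libraries (2.07, adjusted p = 0.0282) and against in vitro (1.56, adjusted p = 0.0346). Of 3 genes inside the clusters tested against in vitro, Haglr in Hoxd was higher in both clones (4.14 and 4.17) and Gm53 in Hoxb lower in KO1 (-2.55). Against the H3K27me3 assay Haglr was not tested, and neither of the 2 tested passed.

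Markers of other states moved with these results and their part in them was not tested. The 10 pluripotency genes summed to 4652 and 4721 CPM in KO1 and to 4076 and 4250 CPM in KO2, against 5899 to 6581 CPM in the WT libraries of the H3K27me3 assay, and 4 of them were lower in KO1 and 6 in KO2 (19.9% and 17.2% of all genes were called lower). Against in vitro 5 were lower and 2 higher in KO1 and 4 lower and 2 higher in KO2, and Nanog, lower in KO2 against the H3K27me3 assay (-0.93), was higher there (0.99). Fibroblast markers, for cells that use Hox genes at a high level, summed to 16.9 to 48.7 CPM in the clones and 3.55 to 39.9 CPM in WT, and 0 of 3 tested markers were called by edgeR. Of 15 fibroblast markers, 11 had a count in KO1, 9 in KO2 and 13 in these WT libraries. Dcn and Lum had none in the clones or in these WT libraries. Mesoderm and primitive streak markers summed to 40.9 to 58.6 CPM in the clones and 22.5 to 41.2 CPM in WT. Among 4 tested, Eomes was higher in both clones (1.89 and 2.37) and Gsc lower in KO2 (-3.27 ± 0.93, adjusted p = 0.0125). Sums of neural (102 to 181 against 130 to 201 CPM) and primitive endoderm markers (38.5 to 70.6 against 34.1 to 73.6 CPM) overlapped WT. Those of trophectoderm markers (98.4 to 129 against 78.7 to 123 CPM) did too, but single markers of each list were called. Of 3 neural markers tested, Nes was higher (2.84 and 1.17) and Tubb3 lower (-1.29 and -0.821) in KO1 and KO2. Against in vitro Tubb3 was higher in both clones (2.54 and 3.01) and Nes did not pass. Of 2 primitive endoderm markers tested, Lama1 was lower in both clones (-1.41 and -1.74) and Col4a1 higher in KO2. Of 5 trophectoderm markers tested, Cdx2 and Eomes were higher in KO1, and in KO2 Eomes was higher and Tfap2c lower.

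In single cells most Hox genes were at the limit of detection and one stood out. The H3K27me3 matrix held 384 cells of 10 experiments and listed 17 members with 1504 reads, and the H3K4me3 matrix held 368 cells of 6 experiments and listed 14 members with 438 reads. Hoxd3, a gene of the neck vertebrae, gave 1168 of the 1504 reads, in 201 of 384 cells (52.3%, exact 95% interval 47.2% to 57.4%). In the H3K4me3 matrix it gave 39 reads in 23 of 368 cells (6.25%, interval 4.00% to 9.23%). Among all listed genes, 8.09% of 17622 were seen in at least as many cells as Hoxd3 in the first matrix and 56.2% of 17142 in the second. In bulk, Hoxd3 gave a count in 16 of 50 WT libraries and in no KO library.

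The share of cells with a Hoxd3 read changed with the experiment. In experiments 1 to 5 and 7 it ran from 0% to 37.5%, and in experiments 6, 8, 9 and 10 it was 93.8%, 81.2%, 89.6% and 73.4%. Experiments 8 to 10 stand apart in another way: the pluripotency genes summed to 22.8, 6.67 and 14.6 RPM (reads per 1000000) there, against 926 to 3157 in experiments 1 to 7, and Pou5f1 had 0 reads in 176 cells. Without those 3 experiments Hoxd3 was seen in 59 of 208 cells (28.4%, interval 22.3% to 35.0%). Aebp2, at 18535 RPM over the H3K27me3 matrix and seen in all 384 cells, was also far above its bulk level, and in the H3K4me3 matrix it stood at 1171 RPM. Whether the reads assigned to Hoxd3 in these experiments come from its mRNA was not tested.

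The members other than Hoxd3 gave 336 reads in 42 cells (10.9%) of the H3K27me3 matrix and 399 reads in 39 cells (10.6%) of the H3K4me3 matrix. Depth went with this share: in experiments 1, 2 and 3, whose median cell had 1590150, 1632580 and 790607 reads, 62.5%, 62.5% and 75.0% of 16 cells held such a read, and elsewhere the median cell had 9184.5 to 449342 reads. In experiments 9 and 10 no cell held one. Single cells carried much of the total, with 121 of 125 Hoxb3 reads in 1 cell of the H3K27me3 matrix and 245 of 323 Hoxa3 reads in 1 cell of the H3K4me3 matrix. For a member with no read in a whole matrix, 3 cells of the total allow a share of cells with a read of up to 0.781% (384 cells) or 0.815% (368 cells), which at these depths does not limit the share of cells that express it.

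**Figure D5:**
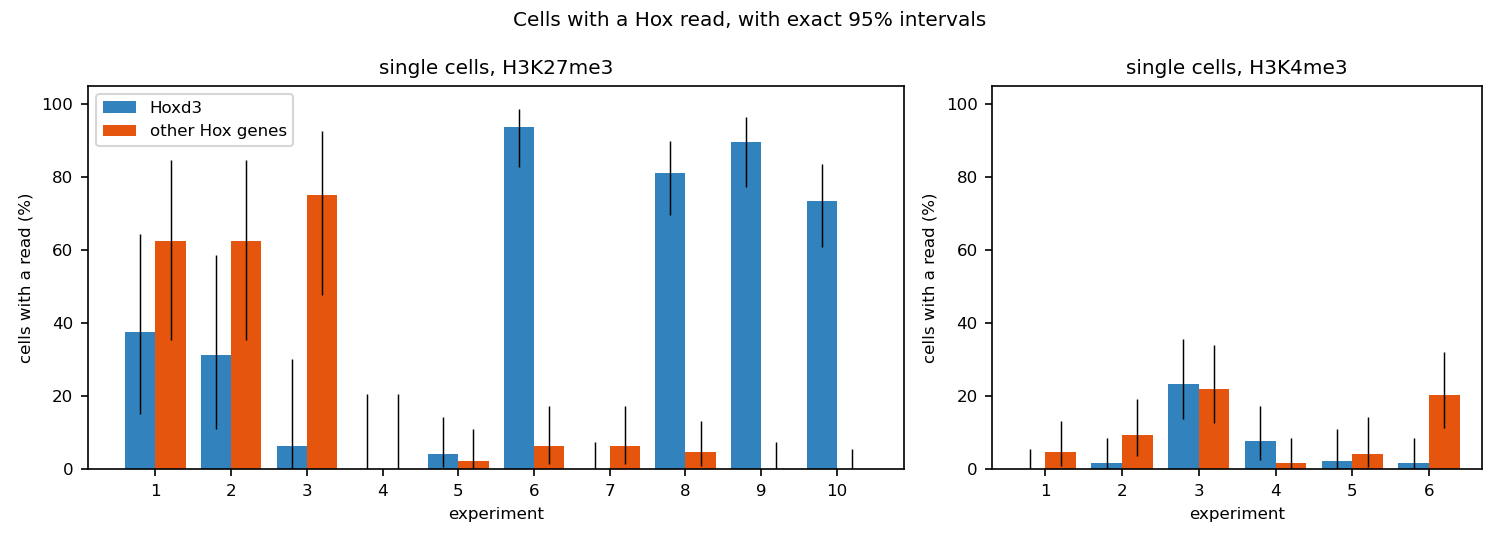
Share of single cells (vertical axes, percent) with a read of Hoxd3 or of any other Hox gene in each experiment (horizontal axes) of the H3K27me3 and the H3K4me3 matrix, with exact 95% binomial intervals. Hoxd3 exceeds 70% of cells in experiments 6, 8, 9 and 10 of the H3K27me3 matrix, and the other Hox genes are seen mainly in experiments 1 to 3.

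The single-cell design compares daughters proximal and distal to the Wnt3a bead. Over sums of cells per experiment and position, Hoxd3 was the only member that passed the filter on low counts, in 9 experiments of the H3K27me3 matrix, and its difference did not pass the test (1.03 ± 0.71 higher in proximal cells on the log2 scale, adjusted p = 0.999, edgeR with the experiment as a block). No gene of the 3716 tested passed (0.0%), and 112 had an unadjusted p below 0.05. By position Hoxd3 stood at 12.8 distal and 14.3 proximal RPM in experiment 6, 7.98 and 16.2 in experiment 8, 24.5 and 15.3 in experiment 9, and 11.7 and 19.0 in experiment 10. The direction was thus not the same in these 4 experiments, and 3 of them are the ones that stand apart. In the H3K4me3 matrix no member passed the filter among 4674 genes tested (0.0% called). Without the filter 14 members were tested in the H3K27me3 matrix and 11 in the H3K4me3 matrix, and none was called.

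Summed over members, the H3K4me3 matrix gave more Hox reads in proximal than in distal cells in 5 of 5 experiments, at 52.9 against 3.22 RPM in experiment 2, 8.79 against 2.79 in experiment 3, 2.91 against 0.842 in experiment 4, 2.98 against 0.960 in experiment 6, and 68 reads against 0 in experiment 5. In experiments 2 and 5 single cells held 245 of 248 and 66 of 68 of the proximal reads. Cells with any Hox read numbered 3 proximal and 3 distal in experiment 2, 16 and 6 in experiment 3, 5 and 1 in experiment 4, 2 and 0 in experiment 5, and 3 and 1 in experiment 6. In the H3K27me3 matrix the direction of the sum differed between experiments, with 4.40 distal and 2.32 proximal RPM in experiment 1 and 9.93 and 4.23 RPM in experiment 3, more in distal cells also in experiment 9, and more in proximal cells in experiments 5 to 8 and 10. A single cell held 144 of 146 proximal reads in experiment 7 and 97 of 200 distal reads in experiment 9. Experiment 5 gave 2 proximal reads and 0 distal.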

How the data were processed

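Expression was measured by RNA sequencing in 54 bulk libraries and in single cells. The authors trimmed reads (Trim Galore 0.6.4), aligned them to mm9 (STAR 2.5.4b) and deposited raw gene counts (featureCounts 2.0.0 or 2.0.1). For single cells the deposited matrices hold whole-number counts per gene and cell made with zUMIs. The files as deposited were the start of this work. Genomic libraries were not analysed here.

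Rn45s was removed from all libraries. CPM was set per library without it, and RPKM used exon lengths of the tables. Counts were tested with edgeR 4.0.16 in R 4.3.3 (TMM, filterByExpr, quasi-likelihood), with Benjamini-Hochberg adjustment over all genes and a threshold of 0.05. SE is the log2 fold change divided by the root of F. The main comparisons used 10 libraries (KO1, KO2, and 6 WT libraries of the H3K27me3 assay as a single level), and a fit with 7 levels used all 54. Groups came from the labels of the series, and nothing says that the 2 libraries of every group came from separate cultures, so p-values measure the spread between these libraries, which may be technical. No pair of replicates was identical. Replicate numbers did not pair the samples: deviations of same-numbered libraries correlated at -0.0475 to 0.0693 over 11446 genes. A single-cell sum took cells with over 1000 and under 5000 genes (335 of 384 and 210 of 368 cells), at least 3 cells per experiment and position, with positions from the cell table of the study. Cells had been picked by hand and no doublet caller was run. Barcodes recur between experiments (80 of 96 and 64 of 80 distinct barcodes). Intervals are exact binomial (Clopper-Pearson, 95%) and, like floors of 3 counts, cover counting error only. Promoter bases were read from the mm9 genome, 200 bases before the gene start of the annotation.

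The members and gene lists were chosen with earlier results of these data known. Members named with values per library were those called in a clone, the 5 highest in mean RPKM over WT and the highest of each cluster in the clones. Of other genes, Aebp2, Hprt, neighbours within 200 kb and called list members, at most 4 a list, were named. Some list members are not reported here, so no counts are given for the TALE and retinoic acid lists. Hoxa2, Hoxa10, Hoxa13, Hoxb1, Hoxc8 and Hoxc11 and other members given from further comparisons were chosen after their values were seen. Alternatives were DESeq2 1.42.0, its size factors, no filter, a replicate block, unadjusted p with a log2 fold change of 1, other WT sets and leaving out each library. Scripts were tested on simulated data. Python 3.11.15 with numpy 2.4.6, pandas 2.3.3, scipy 1.17.1 and matplotlib 3.10.9 was used.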

Additional observations from a re-analysis of the deposited data

Results flagged for a closer look

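Within sets of 4 to 10 libraries or experiments, 13 of 38 sets of values held a highest or lowest value that stood far from the others by Dixon's criterion, which chance alone meets in about 1 in 20 groups. Many of these sets consist mostly of zeros, so that a single count can meet it.

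In the WT libraries of the H3K27me3 assay these were Hoxa5 at 0.901 CPM in 10000 cells replicate 2, Hoxc9 at 0.808 CPM in 10000 cells replicate 1 and Hoxc12 at 8.12 CPM in 100 cells replicate 1. In those of the H3K4me3 assay they were the Hoxa sum of 10.7 CPM and Hoxb13 at 1.64 CPM in 10000 cells replicate 2, and the Hoxb sum of 12.6 CPM and the Hoxd sum of 13.9 CPM in 100 cells replicate 2. Without antibody they were the Hoxa sum of 15.3 CPM in 1000 cells replicate 2, a library of 195539 counts, Hoxa5 at 1.89 CPM in 10 cells replicate 1, Hoxc9 at 2.45 CPM in 100 cells replicate 1 and Hoxc12 at 10.0 CPM in 100 cells replicate 2. In the single cells of the H3K27me3 matrix, experiment 7 stood apart with 62.7 RPM (reads per 1000000) of any Hox gene and the same 62.7 RPM without Hoxd3.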

How the results depend on the processing

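Depth, the choice of WT set and the cell stock limit these results. At 935126 to 1124026 counts per KO library most members had fewer than 3 counts, and 33 of 38 missed the filter in the 10-library fit. Of 133 alternatives, 81 left the number of members called within 1.5 times and 52 moved it.

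Against the H3K27me3 assay, 1 member was called in KO1. The number was 2 with no filter, 2 with WT of 10000 cells and no filter, 2 with all SET-seq libraries as WT (5 with no filter) and 2 with in vitro as WT (7 with no filter). In KO2 it went from 1 to 2 with DESeq2, 3 with no filter, 2 by unadjusted p with a fold change limit, 0 with WT of 10000 cells (3 with no filter), 3 with all SET-seq libraries (5 with no filter) and 3 with in vitro (5 with no filter). Over both clones it went from 2 to 4 with DESeq2, 1 with DESeq2 size factors, 1 with WT of 10000 cells, 4 with all SET-seq libraries (5 with no filter) and 6 with in vitro (8 with no filter). Under the replicate block it was 1 over both clones, and the block changed no other count of members by over 1.5 times; the pairing is only of numbers. Between the clones it was 0, and 1 by unadjusted p. The shares of all genes called under these settings were 15.6% to 25.8% in KO1, 9.67% to 47.6% in KO2 and 18.6% to 57.3% over both clones. Leaving out each library gave 0 to 1 in KO1, 0 to 1 in KO2, 0 to 2 over both clones and 0 between them. The cause of these moves was not tested beyond the number of genes and libraries that each setting leaves.

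In the 54-library fit, no filter gave 9 (from 4), 5 (from 2) and 4 (from 1) members in KO1 against no antibody, in vitro and ligation (16.7%, 20.2% and 6.76% of all genes), and 5 (from 3), 7 (from 4) and 6 (from 2) in KO2 against H3K27me3, H3K4me3 and no antibody (6.59%, 8.01% and 11.1%), while DESeq2 gave 1 in KO2 against H3K27me3, no antibody and ligation (15.3%, 24.4% and 11.6%). Between WT sets no filter gave 20 (from 13; 42.5% of all genes). With libraries of at least 1000000 counts only, which leaves KO1 with replicate 1, 11 members lay above all WT libraries, as did 12.5% of all genes. Genes called of all tested fell from 4213 in KO1 to 2575 without its replicate 1 and 2446 without its replicate 2, and from 3693 in KO2 to 2123 and 2142. Between the clones they were 97, and 309 with DESeq2, 208 with no filter, 45 with the replicate block, 536 by unadjusted p, 1121 with WT of 10000 cells (898 with no filter), 1 with all SET-seq libraries (1 with no filter), 1 with in vitro (0 with no filter) and 4 to 214 with a library left out.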
